A study of Mus musculus with 28 samples.

Results

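The transcription factor NRF2, encoded by Nfe2l2, and 9 genes around it were followed in liver tumours of mice and in the liver tissue beside them. The 10 genes are Nfe2l2, its inhibitor Keap1, and the defence genes Nqo1, Gclc, Gclm, Gsr, Txnrd1, Srxn1, Hmox1 and Slc7a11. They were picked by symbol out of the 18182 genes of the deposited table, and all 10 passed the filter on low counts. The 28 RNA sequencing libraries come from c-Myc/Alb-cre transgenic mice, in which the promoter of albumin, a gene of hepatocytes, drives Cre. Every group shares this genotype, and no liver without the transgene was analysed here. The groups are hepatocellular carcinoma tissue (Tu) and peritumour tissue (Pe) of animals labelled F (11 libraries of each tissue) and of animals labelled M (3 of each); the labels do not expand F and M, and give neither age nor treatment. A sample code shared by a tumour and a peritumour library is read here as 1 animal, which makes 14 pairs. The sample codes come in 2 styles, and 6 pairs (F replicates 1 to 3 and all M) have the first and 8 the second.

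NRF2 is made all the time and, in unstressed cells, is held in the cytoplasm by KEAP1, an adaptor that passes it to a ubiquitin ligase for degradation. Electrophiles and oxidants modify KEAP1, NRF2 then enters the nucleus, pairs with small MAF proteins and binds antioxidant response elements near genes for glutathione synthesis, thioredoxin reduction and quinone and haem breakdown. In liver this programme protects hepatocytes from reactive drug metabolites, and in some human liver cancers it is switched on for good by mutations in either partner. NRF2 is mainly set by protein turnover, so its mRNA level does not report its activity, whereas mRNAs of targets such as Nqo1 are commonly read for that purpose.

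The core of the antioxidant response element reads TGACNNNGC, and a related form reads TGAGNNNGC, where N is any base. Both were searched on both strands in the 250 bases before each start site of the RefSeq promoter table, build GRCm38.p6. The table had windows for 7 of the 10 genes, namely Nfe2l2, Keap1, Nqo1, Gclm, Slc7a11, Srxn1 and Txnrd1, the last with 3 start sites. Of these 9 windows 5 held a match, against 23.0% of all 32817 windows in the table (10.2% for TGACNNNGC and 14.4% for TGAGNNNGC). Srxn1 held 2 matches, both of the TGAG form. Nfe2l2, Gclm, Slc7a11 and the second start of Txnrd1 held 1 each, and no match lay in the windows of Keap1 or Nqo1, which says only that these letters are not in these 250 bases. The windows of Srxn1 and Gclm are shown because these genes gave, among the members, the lowest adjusted p between the tissues and one of the closest relations to the level of Nqo1. Capitals mark the matches, and both windows lie on the plus strand, 5′ to 3′.
Srxn1, chr2:152105274-152105523: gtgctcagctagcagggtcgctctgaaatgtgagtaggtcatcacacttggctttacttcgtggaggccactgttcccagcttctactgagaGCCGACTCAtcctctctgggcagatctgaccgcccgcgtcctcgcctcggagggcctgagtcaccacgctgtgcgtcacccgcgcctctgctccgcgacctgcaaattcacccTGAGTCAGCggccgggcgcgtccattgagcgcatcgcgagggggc
Gclm, chr3:122245307-122245556: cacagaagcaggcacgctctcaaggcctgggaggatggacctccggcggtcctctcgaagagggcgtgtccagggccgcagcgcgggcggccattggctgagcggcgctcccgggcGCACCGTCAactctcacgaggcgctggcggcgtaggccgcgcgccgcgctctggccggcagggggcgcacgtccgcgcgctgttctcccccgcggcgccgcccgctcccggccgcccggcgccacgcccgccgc
In Srxn1 the capitals are GCCGACTCA, a match on the minus strand whose first base as printed lies 158 bases before the start, and TGAGTCAGC, on the plus strand, 45 bases before it. In Gclm the capitals are GCACCGTCA, a match on the minus strand, 134 bases before the start. No exon of the GENCODE annotation overlapped the Gclm window, but the RefSeq span of the gene Gclm starts inside it, at chr3:122245487. The last 8 bases of the Srxn1 window overlap exons of 2 noncoding Srxn1 transcripts in GENCODE. A match of letters is a description of the window and not a measured binding site.

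The libraries hold 14777567 to 17576921 estimated counts each, and levels are given as counts per 1000000 (CPM), scaled by TMM factors. All 8 hepatocyte markers were present in every library, with summed levels of 15294 to 48636 CPM in tumour (median 31776) and 16566 to 65047 CPM in peritumour tissue (median 40958). Some libraries stood apart in markers of other cells. The tumour of F replicate 2 had the highest cholangiocyte sum (1434 CPM, median of tumours 71.0) and the highest monocyte and macrophage sum (1221 CPM), 2 lists that share Spp1, with the lowest hepatocyte sum. F replicates 5 and 6 had high erythroid sums in both tissues (1485 to 2518 CPM, medians 629 in tumour and 948 in peritumour tissue), as did the peritumour library of F replicate 2 (2080.4 CPM), and the tumour of F replicate 4 had the highest (4154 CPM). Myc, the transgene's gene, had a median of 429 CPM in tumour against 347 CPM beside it. In bulk tissue, fewer cells of a type and less RNA per cell cannot be told apart.

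Within each tissue the members were set side by side per transcript length, in the transcripts per 1000000 (TPM) that the authors deposited. In peritumour tissue the median TPM fell in the order Gclm (212), Gclc (194), Txnrd1 (110.3), Nfe2l2 (103), Gsr (77.6), Hmox1 (69.2), Srxn1 (38.2), Keap1 (37.9), Nqo1 (8.23) and Slc7a11 (0.295). The ranges over the 14 libraries of most neighbours in this order overlapped. Breaks without overlap came after Keap1, whose lowest library (32.1 TPM) lay above the highest of Nqo1 (26.3 TPM), and after Nqo1, whose lowest (4.08 TPM) lay above the highest of Slc7a11 (0.57 TPM). In tumour the order of medians was the same except that Keap1 (39.1 TPM) stood above Srxn1 (25.5 TPM), and only Nqo1 (1.38 to 17.2 TPM) and Slc7a11 (0.19 to 0.53 TPM) did not overlap as neighbours. The 2 subunits of glutamate-cysteine ligase, which makes the first and rate-limiting step of glutathione synthesis, therefore stood at the top in both tissues. Nqo1, the most used readout of the pathway, stood next to last.

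**Figure D1:**
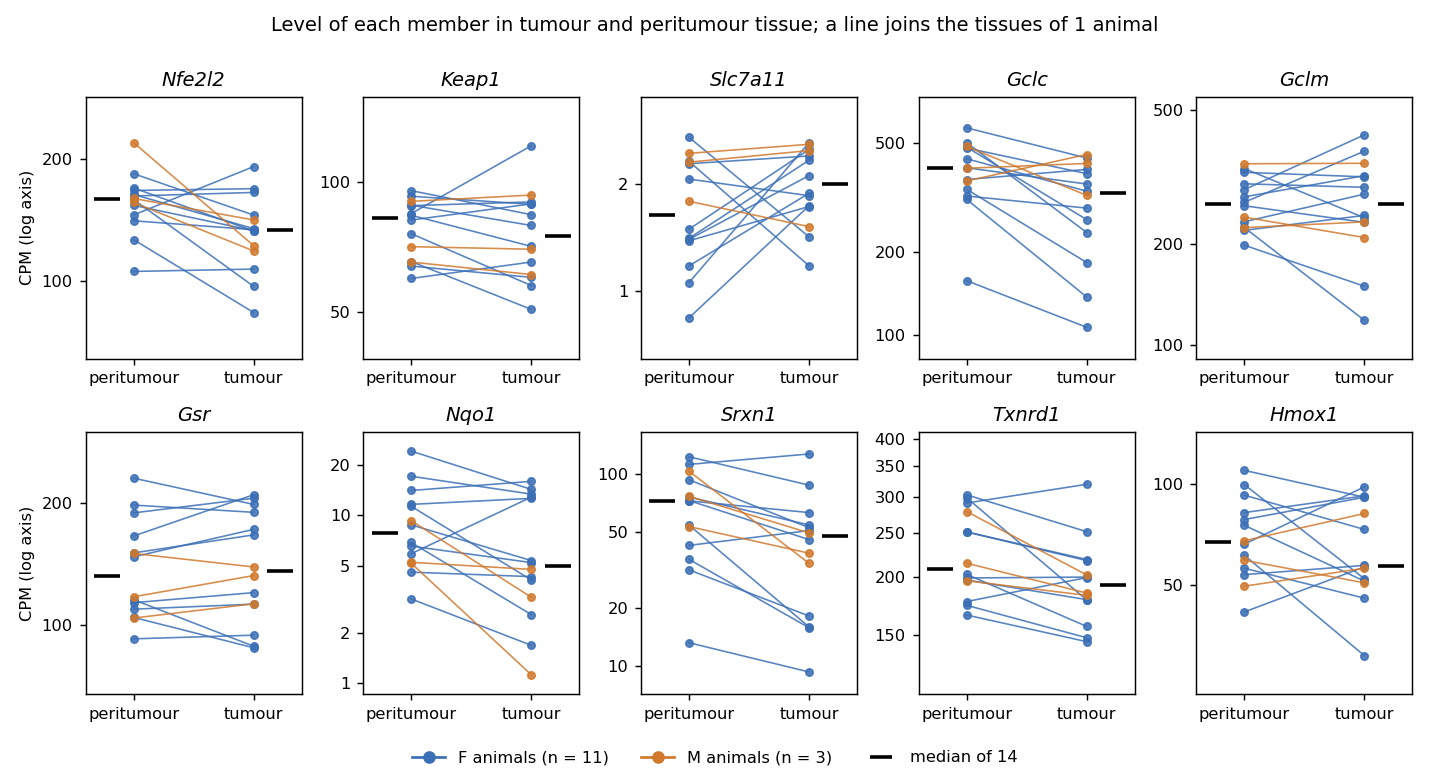
Levels of the 10 members in counts per 1000000 (CPM, log axis) in the peritumour and tumour library of each animal, with a line joining the 2 libraries of an animal (blue for 11 F animals, orange for 3 M animals) and a bar at the median of 14. Most lines of Srxn1 and Gclc run downward to the tumour (12 and 11 of 14), while those of Gclm split 7 to 7.

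The series design sets tissue inside the tumour against tissue around it. Across the 14 pairs, mRNA of Srxn1 and of Gclc was lower in tumour when each tumour was set against its own peritumour tissue, and the other 8 members did not pass the test in either direction. The test without pairing called none of the 10 members (edgeR's quasi-likelihood test, smallest adjusted p = 0.222), where 1.05% of all 14117 genes tested were called (0.808% higher and 0.241% lower). Of the members 2, Nfe2l2 and Gclc, had an unadjusted p under 0.05, as did 2672 of all genes tested. DESeq2 without pairing also called 0 members, beside 425 of all genes higher and 197 lower. With the animal as a block, edgeR called 2 members, both lower in tumour, where 5.91% of all genes were called lower, 5.59% higher and 11.5% in either direction. The median log2 fold change of the 10 members was -0.16 in either fit, against 0.01 without the block and -0.01 with it over all genes tested. Below, adjusted p values are those of edgeR over all genes, and each member's value with the block is given with that from the fit without it.

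Srxn1, which encodes sulfiredoxin, the enzyme that repairs over-oxidised peroxiredoxins, ranged from 13.3 CPM (F replicate 5) through a median of 72.5 to 123 CPM (F replicate 8) in peritumour tissue. In tumour it ranged from 9.35 CPM (F replicate 5) through a median of 47.4 to 127 CPM (F replicate 9). The groups overlapped widely, but within animals the tumour was lower in 12 of 14 pairs, with tumour to peritumour ratios from 0.295 (F replicate 6) to 1.19 (F replicate 3) and a median of 0.675. The log2 fold change was -0.65 ± 0.14 (SE) with the block (edgeR, adjusted p = 0.0099) and -0.53 ± 0.29 without it (adjusted p = 0.331). With the block Srxn1 was called whichever single pair was left out (adjusted p from 0.00546 to 0.0227). It was -0.73 in the first code style alone (edgeR, adjusted p = 0.509) and -0.58 in the second (0.0549). In the first style alone 0 of 13663 genes were called.

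Gclc, the catalytic subunit of glutamate-cysteine ligase, ranged from 158 CPM (F replicate 5) through a median of 407 to 570.0 CPM (F replicate 8) in peritumour tissue, and from 107 CPM (F replicate 5) through 329 to 456 CPM (M replicate 3) in tumour. Tumour was lower in 11 of 14 pairs, with ratios from 0.44 (F replicate 2) to 1.25 (M replicate 3). The log2 fold change was -0.44 ± 0.12 with the block (edgeR, adjusted p = 0.025) and -0.39 ± 0.19 without it (adjusted p = 0.251). The blocked call was lost without F replicate 7 or F replicate 8, each left out alone (adjusted p up to 0.0531). It was also lost without F replicates 2, 5 and 6 together (-0.31, adjusted p = 0.0799), while Srxn1 kept its call there (-0.51, adjusted p = 0.0259).

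Gclm encodes the modifier subunit, which raises the ligase's affinity for glutamate and eases its inhibition by glutathione. It was not called in either fit, and its levels ran from 198 through 263 to 346 CPM in peritumour tissue and from 118 through 262 to 423 CPM in tumour. The tumour was lower in 7 pairs and higher in 7, and the log2 fold change was -0.04 ± 0.10 with the block (edgeR, adjusted p = 0.848) and 0.01 ± 0.14 without it. The lowest ratio was that of F replicate 2 (0.528) and the highest that of F replicate 11 (1.46). Whether the changes of Gclc and Gclm differ from each other was not tested.

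Nqo1, the quinone reductase, was scarce in both tissues and differed widely between animals. In peritumour tissue it ranged from 3.17 CPM (F replicate 5) through a median of 7.84 to 24.2 CPM (F replicate 4), and in tumour from 1.12 CPM (M replicate 2) through 4.99 to 16.0 CPM (F replicate 8). The tumour was lower in 11 of 14 pairs, but F replicate 6 went the other way, from 5.91 to 12.9 CPM, a ratio of 2.18. In the same animal Srxn1 went from 54.2 to 16.0 CPM and Gclc from 340.2 to 184 CPM. The log2 fold change of Nqo1 was -0.58 ± 0.21 with the block (edgeR, adjusted p = 0.0832) and -0.50 ± 0.30 without it (adjusted p = 0.361). Without F replicate 6 the blocked fit called it (-0.71, adjusted p = 0.0319).

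Nfe2l2 itself ranged from 105 through 159 to 219.97 CPM in peritumour tissue and from 83.4 through 133 to 192 CPM in tumour, lower in 10 of 14 pairs. Its log2 fold change was -0.25 ± 0.09 with the block (edgeR, adjusted p = 0.0703) and -0.24 ± 0.11 without it (adjusted p = 0.222). Keap1 ranged from 59.7 through 82.6 to 95.5 CPM in peritumour tissue and from 50.6 through 75.0 to 121 CPM in tumour. It was lower in 9 of 14 pairs, with a blocked log2 fold change of -0.05 ± 0.07 (edgeR, adjusted p = 0.629) and -0.05 ± 0.09 without the block (0.811). Neither the factor nor its inhibitor was called, and their groups overlapped over most of their range.

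Txnrd1, the cytosolic thioredoxin reductase, had values close to those of Nfe2l2 in direction and size. It ranged from 166 through 209 to 303 CPM in peritumour tissue and from 145 through 192 to 319 CPM in tumour, lower in 11 of 14 pairs. The blocked log2 fold change was -0.20 ± 0.07 (edgeR, adjusted p = 0.0696), and -0.20 ± 0.10 without the block (0.294). Leaving out single pairs brought Nfe2l2 (without F replicate 9, adjusted p = 0.0376) and Txnrd1 (without F replicate 3, adjusted p = 0.0474) past the threshold. DESeq2 with the block called 5 members, all lower: Srxn1, Gclc, Txnrd1 (adjusted p = 0.0311), Nqo1 (0.0352) and Nfe2l2 (0.036). It also called more of all 14117 genes, 1239 lower and 1148 higher, against 835 and 789 for edgeR with the block.

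Gsr, which returns oxidised glutathione to its reduced form, had close medians in the 2 tissues, of 132 CPM in peritumour tissue (92.3 to 230.2) and 136 CPM in tumour (87.7 to 209.6). Its blocked log2 fold change of 0.02 ± 0.06 (edgeR, adjusted p = 0.870) had the smallest error of the 10; without the block it was 0.02 ± 0.12 (0.932). Hmox1, the inducible haem oxygenase, which is also made by macrophages that clear red cells, ranged from 41.7 through 67.1 to 109.98 CPM in peritumour tissue and from 30.9 through 57.1 to 98.2 CPM in tumour. It was lower in 7 pairs and higher in 7 (-0.12 ± 0.12 with the block, edgeR, adjusted p = 0.550, and -0.12 ± 0.15 without it, 0.687). Slc7a11, the cystine importer, was near the limit of detection, with 11 to 47 counts per library, and is normally low in hepatocytes. It ran from 0.842 through 1.64 to 2.71 CPM in peritumour tissue and from 1.18 through 2.00 to 2.62 CPM in tumour. Tumour was higher in 10 of 14 pairs, with a blocked log2 fold change of 0.23 ± 0.19 (edgeR, adjusted p = 0.455) and 0.21 ± 0.18 without the block (0.551).

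**Figure D2:**
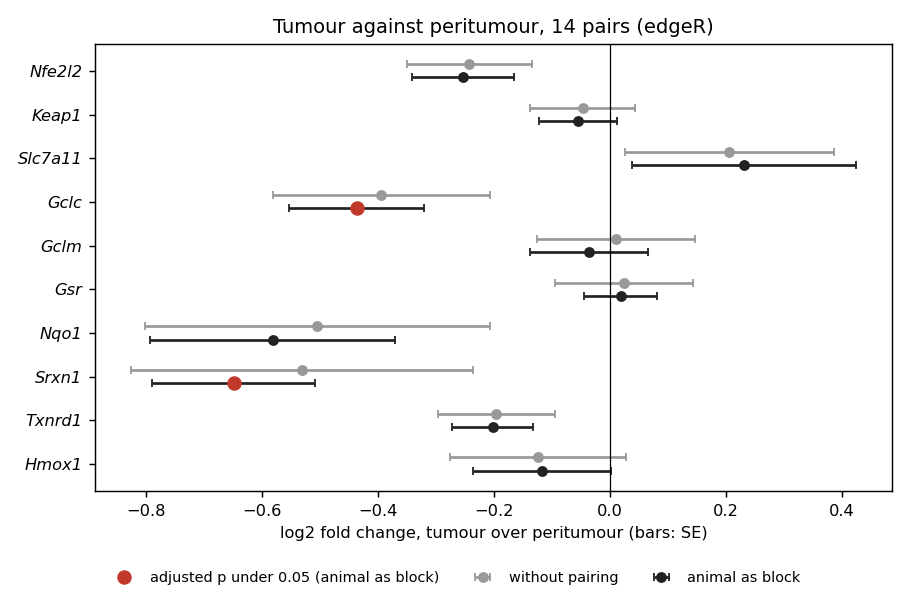
Log2 fold change of tumour over peritumour tissue for the 10 members (edgeR), without pairing (grey) and with the animal as a block (black). Bars are standard errors derived from the test statistic of each fit to the 28 libraries, and red marks an adjusted p under 0.05. Srxn1 (-0.65) and Gclc (-0.44) carry the red marks, and Gclm and Gsr lie at 0 within their errors.

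The wider pathway was read from 9 lists with 92 genes, all of them tested. Without the block none was called (edgeR; 17 had an unadjusted p under 0.05). With the block 18 were lower in tumour and 1 higher, which is 20.7% of the lists' genes, beside 11.5% over all genes. For the genes named below, adjusted p without the block (edgeR) ran from 0.0604 for Mgst1 to 0.389 for Gstk1, and the fold changes given are those with it.

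Of 12 genes of glutathione turnover and use, 4 fell and none rose (median log2 fold change -0.19). Mgst1, a membrane-bound glutathione transferase and peroxidase, went from 1439 ± 581 CPM beside the tumour to 834 ± 347 CPM in it (SD, n = 14 each), with the tumour lower in 14 of 14 pairs (-0.79 ± 0.10 with the block, edgeR, adjusted p = 0.000714). Gpx2, a glutathione peroxidase best known from gut epithelium and a known NRF2 target, was scarce and fell from 4.28 ± 2.67 to 1.69 ± 1.15 CPM (lower in 13 of 14 pairs; log2 fold change -1.37 ± 0.29). Gpx1, the abundant cytosolic peroxidase, went from 1296 ± 362 CPM to 1020.1 ± 512 CPM (SD, n = 14 each), lower in 12 of 14 pairs. Of 18 glutathione S-transferases 3 fell, namely Gsta3 (-0.44 ± 0.11, 14 of 14 pairs), Gstk1 (-0.54 ± 0.15, 13 of 14) and Gstm6 (-0.74 ± 0.17, 11 of 14). The alpha and mu transferases have near-identical copies, so the share of reads given to Gsta3 and Gstm6 is uncertain.

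Prdx1, a peroxiredoxin of the kind that sulfiredoxin repairs, was the single gene to fall of 12 in the thioredoxin and peroxiredoxin list, whose median was 0.02. It went from 1245 ± 227 CPM in the surrounding tissue to 1003 ± 186 CPM (SD, n = 14 each), with the tumour lower in 12 of 14 pairs (-0.31 ± 0.07 with the block, edgeR, adjusted p = 0.0125). Of 7 genes of NADPH supply, Idh1, the cytosolic isocitrate dehydrogenase, fell in 14 of 14 pairs (-0.49 ± 0.09). The other 6 were not called, so the enzymes of the pentose phosphate route in the list did not pass in either direction.

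In the list of haem breakdown and iron storage, 3 of 6 genes fell while Hmox1 did not pass. These were Slc48a1, a haem transporter (-0.40 ± 0.07, lower in 14 of 14 pairs), Blvrb, a biliverdin reductase (-0.45 ± 0.11, 12 of 14), and Ftl1, the ferritin light chain (-0.31 ± 0.08, 13 of 14). Of 14 other known NRF2 targets 4 fell, among them Aox1, aldehyde oxidase (-0.82 ± 0.13), Htatip2 (-0.50 ± 0.13) and Abcc2, which exports conjugates into bile (-0.44 ± 0.11). Catalase (Cat, -0.43 ± 0.11) and the extracellular superoxide dismutase Sod3 (-0.40 ± 0.11) were the 2 of 4 that fell in their list. In the list of ATF4 targets and transsulfuration, which supply cysteine and serine, Psat1 of serine synthesis rose (1.00 ± 0.17, higher in 13 of 14 pairs, edgeR with the block, adjusted p = 0.00212), from 124 ± 133 to 239 ± 210.5 CPM (SD, n = 14 each). It was the 1 of 8 that passed, and the median of that list was 0.02. None of 11 partners and regulators passed (median -0.05).

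**Figure D3:**
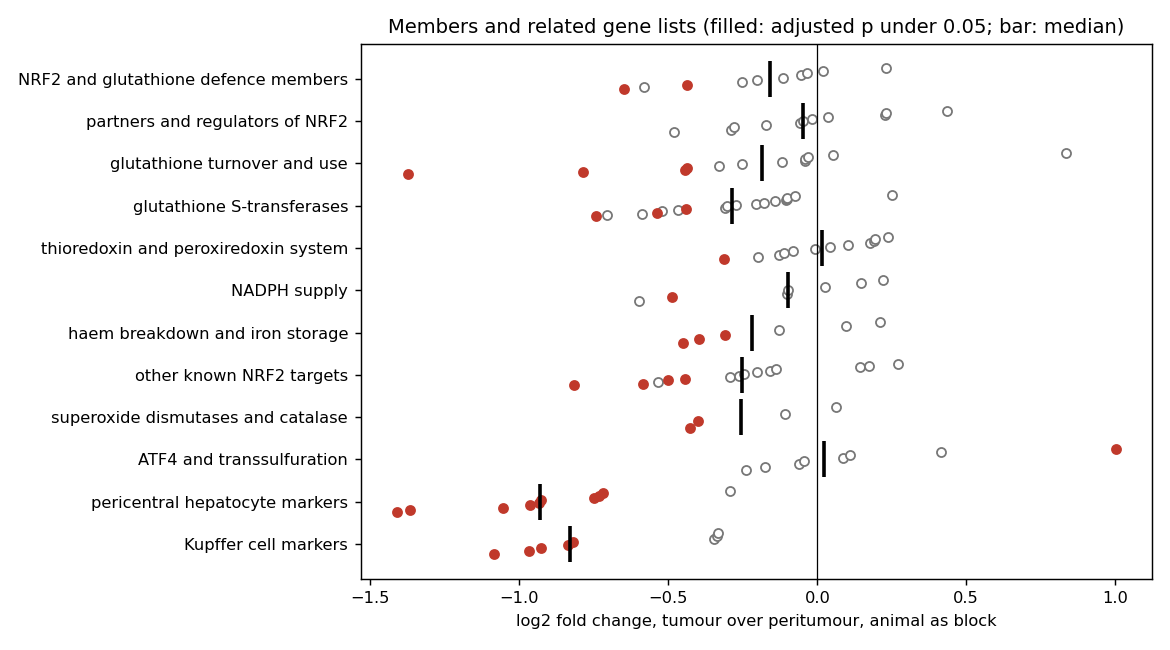
Log2 fold change of tumour over peritumour tissue (edgeR, animal as a block) for every tested gene of the 10 members, the 9 pathway lists and the pericentral and Kupffer cell markers, 1 row per list; filled red points passed an adjusted p of 0.05 and the black bar is the list's median. Red points lie to the left of 0 apart from Psat1 (1.00).

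Markers of hepatocyte zones and of other liver cells differed between the same tissues. The summed level of 10 pericentral hepatocyte markers was lower in tumour in 14 of 14 pairs (385 to 2320 CPM against 600 to 3979 CPM), and 9 of the 10 were called lower with the block (median -0.93). Of the 8 general hepatocyte markers 4 were called lower (median -0.51), with a lower sum in 13 of 14 pairs. Of 8 Kupffer cell markers 5 were called lower (median -0.83), with sums of 172 to 783 CPM in tumour and 229 to 856 CPM beside it. Of the sinusoidal endothelial markers 3 of 7 were lower, and of the stellate cell and fibroblast markers 3 of 8 were lower and 1 higher. No monocyte and macrophage, erythroid, neutrophil or cholangiocyte marker was called in either direction (edgeR with the block). Without the block edgeR called 1 pericentral marker and 2 stellate cell and fibroblast markers lower, and no other marker of these lists in either direction. None of these lists had a marker at 0 in every library. The part of these cell markers in the values of Srxn1, Gclc and the pathway genes was not tested.

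Next, animals labelled M were set against those labelled F within each tissue. No member was called in peritumour tissue (edgeR, smallest adjusted p = 1.00) or in tumour (0.569), where 0.0283% of all genes were called in either tissue. At an unadjusted p under 0.05 (edgeR) the count of members was 0 too, beside 215 of all 14117 genes in peritumour tissue and 1389 in tumour. DESeq2 also called 0 members at an adjusted p under 0.05. Of all genes it called 4 higher and 2 lower in peritumour tissue, and 11 higher and 57 lower in tumour. Differences of Srxn1, Gclc and Nqo1 are therefore given as values only.

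Srxn1 stood at 53.2, 76.4 and 103 CPM in the 3 peritumour libraries of M, inside the range of the 11 of F (13.3 to 123 CPM, median 72.3). The fit, which holds code style constant, put M above F by 1.06 ± 0.57 on the log2 scale (edgeR, unadjusted p = 0.073). The size of that value rests on the code style, since all M animals have the first style, and the 3 peritumour libraries of F with that style stood lower, at 31.7 to 42.4 CPM; without that term in the fit the value was 0.23. In tumour Gclc stood at 423, 323 and 456 CPM in M and from 107 through 290.3 to 442 CPM in F (0.65 ± 0.36, edgeR, unadjusted p = 0.082; 0.49 without the term for code style, 0.43 without F replicate 2 and 0.41 without F replicates 2, 5 and 6). Nqo1 in tumour stood at 4.76, 1.12 and 3.25 CPM in M and from 1.68 through 5.37 to 16.0 CPM in F (-0.53 ± 0.60, edgeR, unadjusted p = 0.386; -1.46 without that term and -0.13 without M replicate 2). For Srxn1 in tumour the value was 0.55 ± 0.57 (edgeR, unadjusted p = 0.344).

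Whether the step from peritumour to tumour tissue differs between M and F was tested as an interaction. No member passed without the block (edgeR, smallest adjusted p = 0.995) or with it (0.696), none had an unadjusted p under 0.05, and 0% of all genes were called in either fit (423 and 1001 genes at an unadjusted p under 0.05). Nqo1 had the largest value, -0.84 ± 0.50 with the block: M went from 5.25, 5.18 and 9.30 CPM to 4.76, 1.12 and 3.25 CPM, lower in each of the 3 animals. Gclc had 0.47 ± 0.27, with M going from 406, 487 and 365 CPM to 423, 323 and 456 CPM. These values, from 3 animals of M, did not pass the test and moved with single animals in the fit without the block. There Nqo1 went from -0.77 to -1.39 without M replicate 1 and to -0.47 without M replicate 3. Gclc went from 0.42 to 0.67 without M replicate 2 and to 0.24 without M replicate 3.

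Among F animals the levels of several members also differed by code style, which the labels do not explain. In peritumour tissue Txnrd1 ran from 166 to 177 CPM in the 3 animals of the first style and from 197 to 303 CPM in the 8 of the second, without overlap. Gsr ran from 92.3 to 109 CPM and from 113 to 230.2 CPM, also without overlap. In tumour Keap1 ran from 50.6 to 60.0 CPM in the first style and from 65.2 to 121 CPM in the second. The ranges of each of these genes overlapped in the other tissue, and those of the remaining members overlapped in both. The share of all genes that separate by style in this way was not counted, and these differences were not tested. Within animals the direction of the fitted tumour difference was the same in both styles for Srxn1 and Gclc, where the first style includes all M animals. For Gclc the values were -0.31 in the first (edgeR with the block, adjusted p = 0.647) and -0.52 in the second (0.0367). In the first style the log2 differences of Gclc by pair were -0.15, -1.18 and -0.39 in the 3 F animals, and 0.06, -0.59 and 0.32 in M. The value of the first style thus mixes F and M, and a difference between the styles was not tested. Gclc was thus called in the second style alone, while in the first 0 of all 13663 genes tested were called.

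The question whether the members vary together from animal to animal was asked with Nqo1 as the reference. The tumour minus peritumour differences of the other 9 members did not follow that of Nqo1: Pearson's r ran from -0.12 (Txnrd1) to 0.46 (Gclm), and none passed a two-sided permutation test over 14 animals adjusted over the 9 relations. The highest was Gclm (r = 0.458, Spearman's rho = 0.508, adjusted permutation p = 0.886 and 0.601), with r = 0.694 without F replicate 6 and M replicate 2, the animals farthest from the median change of Nqo1. For Srxn1 r was 0.02 over 14 animals and 0.59 without these 2, 0.50 in the first code style and -0.49 in the second.

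Levels within a tissue gave another picture, in a comparison added after the values were seen and adjusted over its 18 relations. In the 14 peritumour libraries 4 members were correlated with Nqo1 by Pearson's r past the threshold (permutation test). Srxn1 had r = 0.798 (adjusted permutation p = 0.0106) and rho = 0.758 (adjusted 0.0284), and r = 0.770 without F replicates 4 and 5, the animals farthest from the median. Gclm had r = 0.775 (adjusted permutation p = 0.0111) and rho = 0.750 (adjusted 0.0284), and r = 0.661 without them. Keap1 had r = 0.712 (adjusted permutation p = 0.0230) and Gclc r = 0.687 (0.0230), but their rank correlations of 0.679 and 0.591 did not pass (adjusted 0.0578 and 0.0868). Without F replicates 4 and 5 r was 0.70 for Keap1 and 0.552 for Gclc.

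Within code styles the relation was not even. It was 0.885 for Srxn1, 0.816 for Gclm, 0.703 for Keap1 and 0.883 for Gclc in the 8 animals of the second style. In the 6 of the first, which include all M animals, it was 0.521, 0.712, 0.459 and -0.149. Whether these values differ between the styles was not tested. In tumour Gclm alone passed (r = 0.639, adjusted permutation p = 0.0484; rho = 0.591, adjusted 0.0868), and Srxn1 had r = 0.504 (0.199). The libraries share their depth scaling, and the peritumour library lowest in Nqo1, Srxn1, Gclc, Gclm and Keap1, that of F replicate 5, also had the lowest hepatocyte marker sum of that tissue (16566 CPM).

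**Figure D4:**
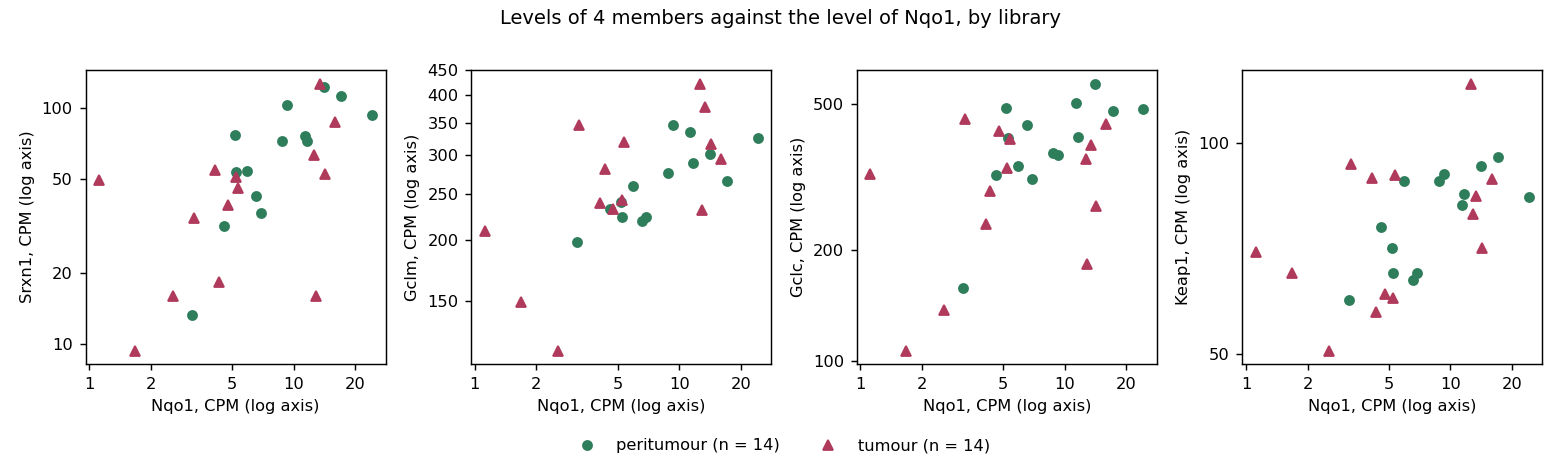
Levels of Srxn1, Gclm, Gclc and Keap1 against that of Nqo1 in each library, all in counts per 1000000 on log axes, for 14 peritumour (circles) and 14 tumour libraries (triangles). Peritumour points of Srxn1 climb with Nqo1 (r = 0.798 on log2 values), and the tumour of F replicate 6 lies far below them at 12.9 CPM of Nqo1 and 16.0 CPM of Srxn1.

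The genes whose tumour minus peritumour differences ranked most like those of Nqo1 were looked up among 9235 genes with a mean of at least 10 CPM. They were Slc12a4 (Spearman's rho 0.881 over 14 animals), Alg12 (0.864), Ces2c (0.855), Tnfsf12 (0.855) and Triobp (0.846). For Hmox1 they were Psma1 (0.877), Cfp (0.837), Cd5l (0.829), Pstk (0.829) and Slc4a1 (0.824), of which Cd5l is in the Kupffer cell list and Slc4a1 in the erythroid list. These rho values are the highest of many and serve as a description, with no test.

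By the deposited coordinates, on GRCm38, Nfe2l2 (gene ID 18024) spans chr2:75675513-75704663 and Keap1 (50868) chr9:21225372-21239332. Nqo1 (18104) spans chr8:107384753-107403251, Hmox1 (15368) chr8:75093618-75100593 and Gsr (14782) chr8:33653238-33720347. Gclc (14629) spans chr9:77754518-77794489 and Gclm (14630) chr3:122211824-122271309. Slc7a11 (26570) spans chr3:50364936-50499087, Srxn1 (76650) chr2:152104527-152112602 and Txnrd1 (50493) chr10:82833951-82897724. Deposited gene ends equalled those of RefSeq for 55.16% of the genes found in both. RefSeq gives narrower spans for some members, such as chr3:122245487-122267215 for Gclm and chr8:33653238-33698162 for Gsr.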

How the data were processed

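RNA of 28 mouse liver libraries was sequenced, per the labels' protocols after Trizol extraction, poly(A) selection and random priming; strandedness is not given in the sources. Per the submitters' processing notes the tools were RSEM 1.2.12, HISAT2 2.0.4, DESeq2 1.4.5 and Bowtie2 2.2.5, with no role given. The authors deposited estimated counts and TPM per gene and library, per the file headers; 8.06% of the count values have decimals. Beside them stand, in the authors' deposited table, log2 fold changes and p-values with q-values of their own comparisons, which were not used for any result, and 9 columns of a group that is not among the samples, not used here. In 1 line there was no gene ID, and 26 symbols turned into dates were looked up by ID.

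Counts were rounded and tested with edgeR 4.0.16 in R 4.3.3 (TMM factors, filterByExpr leaving 14117 genes, robust quasi-likelihood fit, Benjamini-Hochberg adjustment over all genes, threshold 0.05). Tissue was fitted with code style and letter as covariates, and groups with code style. DESeq2 1.42.0 was an alternative. CPM are counts per TMM-scaled library size (factors 0.809 to 1.36). Correlations used log2 CPM with a prior count of 2 and 100000 resamples.

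The fit with the animal as a block was the alternative, and the pairing was checked. Deviations of the 2 libraries of a pair from their group means were correlated in every pair (0.135 to 0.61; median of unpaired libraries -0.0171). Of the 14 tumours, 10 correlated best with their own peritumour library and the rest did not. The check thus did not single out the pair read from the codes for every animal. The calls of Srxn1 and Gclc with the block rest on this pairing. No 2 libraries of a group agreed within sampling noise (lowest index of dispersion 18.3). The 10 members, the lists and the tests were chosen with earlier results of these data known. All members were named, up to 3 called genes per list and direction by adjusted p, the 5 genes most like Nqo1 and Hmox1, and Myc.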

Additional observations from a re-analysis of the deposited data

How the results depend on the processing

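The unpaired test called 0 members under every alternative run without the block, and the block changed that count. With the replicate block it was 2, and also 2 under library size alone, RLE size factors, no filter and in F libraries alone. It was 5 with DESeq2, 1 without F replicates 2, 5 and 6 together, 1 in the second code style alone and 0 in the first. Of all genes, DESeq2 with the block called 1148 higher and 1239 lower of 14117. Without F replicates 2, 5 and 6 together the block called 970 higher and 1087 lower of 13831. In the second code style alone the block called 447 higher and 534 lower of 13055 genes. In the first it called 0 of 13663 genes, so the 0 there is not particular to the members. Leaving out single pairs gave 0 members without the block and 1 to 3 with it. The block changed no other call among the members' comparisons. Pairing could not be used for M against F within a tissue: No paired analysis was possible because these compare different animals. The count of members correlated with Nqo1 was 0 for differences and, in the comparison added after the data were seen, 4 for levels in peritumour and 1 for levels in tumour tissue. Pathway genes called were 19 with the block, 24 with DESeq2 and the block, 10 in the second code style alone and 0 in the first. Without the block they were 0, but 1 with library size alone and 3 with DESeq2. They were 3 without F replicate 5 and 7 without F replicates 2, 5 and 6 together. Of all genes, library size alone without the block called 174 higher and 36 lower, and DESeq2 425 and 197. Without F replicate 5 these counts were 166 and 80, and without F replicates 2, 5 and 6 together 233 and 222.

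Where a direction changed, the value with the changed sign lay near 0. Gclm had -0.0355 with the block, -0.0356 with DESeq2 or RLE size factors and the block, -0.029 without a filter, -0.0366 in F alone, and -0.097 (block) or -0.054 (no block) in the first code style. Leaving out single pairs gave Gclm -0.0403 to 0.0658 without the block and -0.0805 to 0.0362 with it, and Gsr -0.0032 to 0.0499 and -0.006 to 0.0495. In the second code style Keap1 had 0.0209 (block) and 0.0299 (no block), and Hmox1 0.043 and 0.0305. The first style gave lower values, -0.1469 and -0.1444 for Keap1 and -0.3238 and -0.319 for Hmox1. Scaling by library size alone moved the median of all genes to -0.13 for Pe_M against Pe_F and to -0.11 for Tu_M against Tu_F, and called no member. Slc7a11, at 11 to 47 counts, limits what depth can show.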
